A study of Homo sapiens with 6 samples.

Results

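MAP1B, MTUS1 and 8 further genes of microtubule regulation were followed in HCT116, a long-established cell line from a human colorectal carcinoma, sorted by surface CD133 into a positive (CD133+) and a negative (CD133-) fraction. The 10 genes were MAP1B, MAP2, MAP4, MAP7, MTUS1, STMN1, DCLK1, TUBB3, TUBB6 and MAPRE2, listed by name because MAP1B and MTUS1 were among the genes that differed most between the fractions. They were thus chosen by the measured difference between CD133+ and CD133- cells, so that difference is described here for each of them without a test. Each gene was represented by the probe set, a group of array probes for 1 transcript, that carried its symbol alone and had the highest mean over the 6 arrays. This gave 9 measured genes of the 18404 on the array. TUBB3, a beta tubulin, had no probe set of its own, since its only one also carried the symbol of another gene, and it was not measured here.

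The data comprised 6 arrays of total RNA from sorted cells, 3 for CD133+ and 3 for CD133-, with repetitions numbered 1 to 3 in each fraction. HCT116 is 1 cell line. Since no label says that repetitions were grown or sorted apart, the spread behind each p-value may be technical. Values are Robust Multichip Average (RMA) signals on a log2 scale, on which a difference of 1 is a doubling, and all differences are CD133+ minus CD133-. On these arrays of whole fractions, fewer cells of a type and less RNA per cell cannot be told apart.

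Microtubules are hollow polymers of alpha and beta tubulin dimers that grow and shrink mainly at their plus ends. Structural microtubule-associated proteins (MAPs) such as MAP1B, MAP2, MAP4 and MAP7 bind along the lattice and stabilise it or recruit motors. Stathmins such as STMN1 sequester tubulin dimers, end-binding proteins such as MAPRE2 track growing plus ends, and doublecortin-like kinases such as DCLK1 bind the lattice through doublecortin domains. MAP1B, MAP2, TUBB3 and DCLK1 are best known from neurons, MAP4 and MAP7 from many non-neuronal and epithelial cells, and DCLK1 also marks tuft cells of the intestine.

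The sort was visible at the RNA level. PROM1, the gene of CD133, measured 7.35 ± 0.25 in CD133+ and 4.57 ± 0.67 in CD133- cells (SD, n = 3 each). Array medians lay between 5.44 and 5.60. Levels of different probe sets are not comparable, so marker levels are given only as a description beside the mean array median of 5.52. Of the epithelial markers, 8 of 10 were above it, among them KRT8 at 12.02 and KRT18 at 11.39. VIL1 and KRT20, markers of differentiated enterocytes, lay below that median at 4.53 and 4.09. Neuronal markers were above it in 2 of 12 genes (SYT1 at 8.42 and RBFOX3 at 6.26), tuft cell markers in 4 of 9 (such as GFI1B at 5.82 and TRPM5 at 5.72) and enteroendocrine markers in 2 of 9 (INSM1 at 7.01 and PYY at 5.64). Leukocyte markers were above it in 2 of 9 genes (CD68 at 6.99 and TYROBP at 6.80), fibroblast markers in 2 of 10 (COL1A1 at 7.47 and ACTA2 at 5.64) and endothelial markers in 2 of 8 (CLDN5 at 6.14 and ENG at 5.61).

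MAP1B, a MAP that stabilises dynamic microtubules in growing axons, was the member with the largest difference and was lower in CD133+ cells. Its starts lie on chromosome 5, and the upstream sequence of both annotated starts is shown because MAP1B carries the largest difference here and is the only one of the 9 genes with such a sequence in the RefSeq table whose windows hold the hexamer TATAAA, the core of a TATA box. The sequences are the 250 bases before each start on the plus strand of GRCh38.p14, from RefSeq, at chr5:72107225-72107474 and chr5:72179537-72179786, with TATAAA in capitals.
MAP1B start 1: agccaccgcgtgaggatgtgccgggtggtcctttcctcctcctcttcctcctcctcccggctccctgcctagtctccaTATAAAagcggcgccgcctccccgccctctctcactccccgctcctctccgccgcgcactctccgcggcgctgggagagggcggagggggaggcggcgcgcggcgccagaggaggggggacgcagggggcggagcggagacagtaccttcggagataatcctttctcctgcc
MAP1B start 2: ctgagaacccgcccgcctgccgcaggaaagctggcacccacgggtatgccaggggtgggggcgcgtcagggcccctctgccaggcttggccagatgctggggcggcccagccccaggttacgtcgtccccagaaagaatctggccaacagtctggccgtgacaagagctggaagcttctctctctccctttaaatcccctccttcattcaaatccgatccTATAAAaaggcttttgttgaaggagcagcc
TATAAA began 172 bases before start 1 and 30 bases before start 2. The window of start 1 was 70.0% G or C with 25 CG dinucleotides, and that of start 2 was 60.4% with 11.

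The RefSeq table held 23 such windows for 9 of the 10 genes, MTUS1 being the other. Searched on both strands, TATAAA occurred in 2 of them, both of MAP1B, and in 10.7% of all 35116 windows of the same length. CACCTG, an E-box of the kind bound by zinc finger repressors of epithelial genes, occurred in 3 windows, 1 each of MAP7, STMN1 and MAPRE2, against 17.5% of all windows. GGGCGG, the GC box, occurred in 11 windows of 8 genes, against 42.6% of all windows. The hexamers differ, so no stretch counted for more than 1 of them, and a match is a description of letters only.

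MAP1B measured 6.45, 6.57 and 6.999 in the CD133+ arrays of repetitions 1, 2 and 3, and 7.90, 7.94 and 8.41 in the CD133- arrays. The fractions did not overlap, the highest CD133+ array lying below the lowest CD133- array, and repetition 3 was the highest in each fraction. The means were 6.67 ± 0.29 and 8.08 ± 0.28 (SD, n = 3 each), a difference of -1.41, or 2.66-fold lower in CD133+ cells. Within repetitions the difference was -1.46, -1.37 and -1.41, with an SD of 0.043 against a median of 0.14 over all genes. Fraction accounted for 90.2% of the variance of MAP1B over the 6 arrays, repetition for 9.78% and the residual for 0.055%. With the variance of all probe sets pooled, the shares were 17.0%, 64.9% and 18.1%. MAP1B was chosen by its difference between fractions, so a high fraction share follows from the choice.

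MTUS1, which encodes a microtubule-binding protein and candidate tumour suppressor, was the one gene of the 9 measured that was higher in CD133+ cells by more than 0.5. It measured 7.29, 7.71 and 7.37 in the CD133+ arrays of repetitions 1, 2 and 3, and 6.57, 6.68 and 6.52 in the CD133- arrays. The fractions again did not overlap, and the CD133- arrays lay closer together than the CD133+ arrays. The means were 7.46 ± 0.22 and 6.59 ± 0.079 (SD, n = 3 each), a difference of 0.87, or 1.82-fold. Within repetitions the difference was 0.72, 1.03 and 0.84. Fraction accounted for 90.9% of the variance of MTUS1, a share that follows from the choice as for MAP1B.

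**Figure D1:**
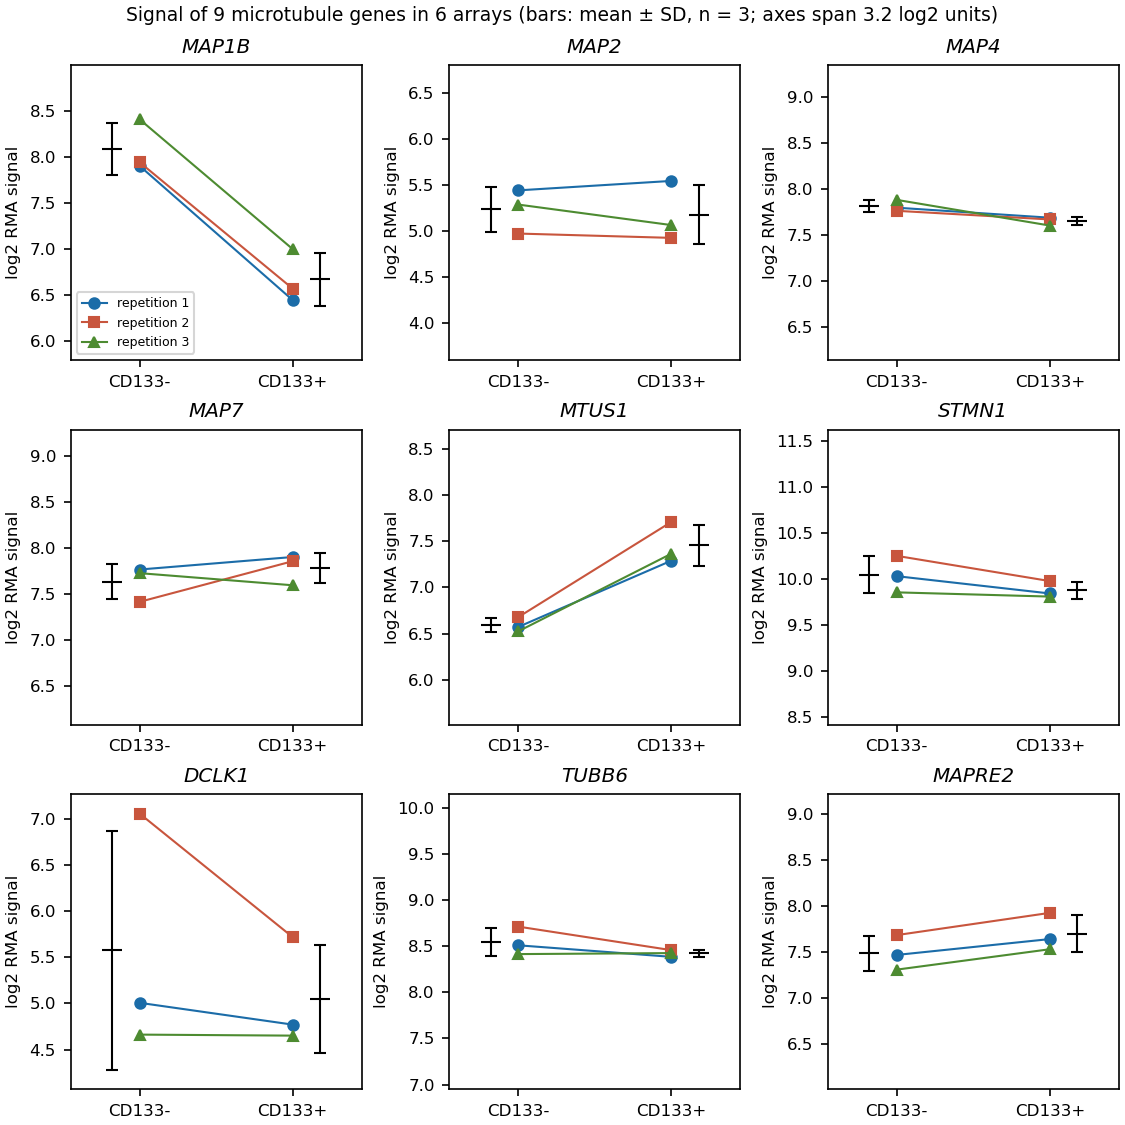
Log2 RMA signal of the 9 measured genes in CD133- and CD133+ arrays; each line joins the 2 arrays of a repetition and the black bars give mean ± SD (n = 3). MAP1B has means of 8.08 in CD133- and 6.67 in CD133+ with near-parallel lines, MTUS1 has 6.59 and 7.46, and DCLK1 stands out by 1 CD133- array at 7.06.

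The other structural MAPs differed far less. MAP4, the main MAP of non-neuronal cells, measured 7.69, 7.67 and 7.61 in CD133+ and 7.80, 7.77 and 7.88 in CD133- arrays. These groups did not overlap either, although the whole range over the 6 arrays was 0.28 and the difference -0.16, or 1.12-fold. MAP2, a dendritic MAP of neurons, measured 5.54, 4.93 and 5.06 in CD133+ and 5.44, 4.97 and 5.29 in CD133- arrays. Its mean of 5.21 lay below the mean array median of 5.52. Its fractions overlapped throughout, with a difference of -0.056 that was positive in repetition 1 (0.10) and negative in repetition 3 (-0.22). MAP7, which recruits kinesin-1 to microtubules in epithelial cells, measured 7.90, 7.86 and 7.60 in CD133+ and 7.77, 7.42 and 7.73 in CD133- arrays. Its difference of 0.15 came from repetitions 1 and 2 (0.14 and 0.44), was -0.13 in repetition 3, and was 0.0023 without repetition 2.

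MAPRE2, an end-binding protein of the EB family, was slightly higher in CD133+ cells in each repetition. It measured 7.64, 7.92 and 7.53 in CD133+ and 7.47, 7.68 and 7.31 in CD133- arrays. The groups overlapped because repetition 2 was high and repetition 3 low in both fractions, while the difference within repetitions was 0.17, 0.24 and 0.22, a mean of 0.21 (1.16-fold). Its residual share of variance was 0.58%, with 69.0% between repetitions.

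STMN1, a tubulin-sequestering protein abundant in dividing cells, measured 9.84, 9.98 and 9.81 in CD133+ and 10.03, 10.25 and 9.85 in CD133- arrays. The groups overlapped, and the difference was -0.19, -0.27 and -0.046 within repetitions, a mean of -0.17. A second STMN1 probe set, at a mean of 4.70, had -0.092. TUBB6, a broadly expressed beta tubulin, measured 8.39, 8.46 and 8.43 in CD133+ and 8.51, 8.71 and 8.42 in CD133- arrays, which overlapped, and its difference of -0.12 was 0.011 in repetition 3.

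DCLK1 differed mainly in 1 repetition. It measured 4.77, 5.72 and 4.65 in CD133+ and 5.01, 7.06 and 4.66 in CD133- arrays. Its mean of 5.31 lay below the mean array median of 5.52, and only the arrays of repetition 2 lay above that median. Both arrays of repetition 2 stood above the other 4, and the CD133- array of repetition 2 stood highest. The mean difference of -0.53 was made of -0.24, -1.34 and -0.011, and was -0.12 without repetition 2. Leaving out the CD133- array of repetition 2 alone turned the sign to 0.21 in the comparison of unpaired means. The mean level of the 9 tuft cell markers was 5.21 to 5.32 in CD133+ and 5.09 to 5.33 in CD133- arrays. With limma, 0 of the 9 differed between repetitions at an adjusted p under 0.05, beside 13% of all probe sets. At an unadjusted p under 0.05 there was 1, beside 9682 of 28230 probe sets. The mean level of the 12 neuronal markers was 4.86 to 4.996 in CD133+ and 4.83 to 5.01 in CD133- arrays. Whether cells of either type bear on the DCLK1 or MAP1B values was not tested.

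**Figure D2:**
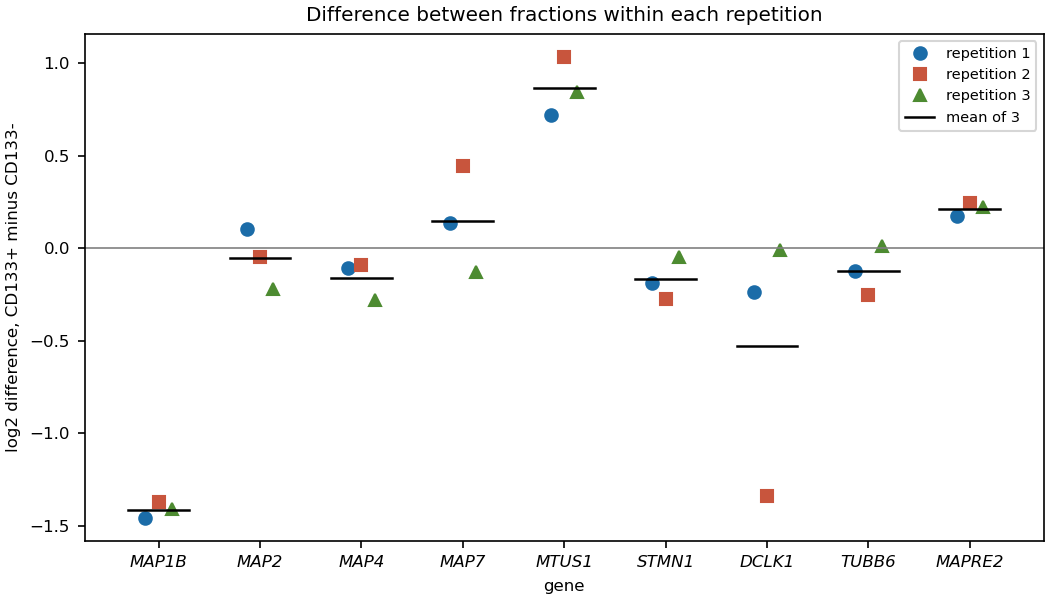
Difference between fractions (CD133+ minus CD133-, log2) for the 9 genes; points are the 3 repetitions and the bar is their mean. The MAP1B points lie between -1.46 and -1.37 and the MTUS1 points between 0.72 and 1.03, whereas DCLK1 spreads from -1.34 to -0.011.

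Over the 9 genes, 3 were higher and 6 lower in CD133+ cells, with a median difference of -0.12 beside -0.0064 over all 18404 genes. The fractions did not overlap for 3 of the 9 (MAP1B, MAP4 and MTUS1), beside 7.95% of all genes. The difference had the same sign in all 3 repetitions for 6 of the 9, beside 36.1% of all genes. The genes were chosen with this contrast known, so these counts describe them and support nothing further.

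The genes nearest in profile to MAP1B and MTUS1 were ranked by the root mean square (RMS) difference of log2 values over the 6 arrays after each gene's own mean was subtracted, among 11249 other genes above the median signal. For MAP1B these were PEG10, an imprinted retrotransposon-derived gene (RMS 0.15, difference between fractions -1.54), TENM3, a teneurin of cell contacts (0.17, -1.70), and GLIS3, a transcription factor (0.17, -1.40). RNF43, a ligase that clears Wnt receptors from the surface (0.28, -0.95), and FN1, fibronectin (0.28, -0.96), followed at a larger distance. TENM3 measured 4.81, 4.86 and 5.42 in CD133+ arrays, below the median signal of 5.53, and 6.59, 6.68 and 6.90 in CD133- arrays. It thus entered the ranking only through its CD133- arrays. FN1 lay near or below that median in CD133+ arrays (5.53, 5.16 and 5.77) and above it in CD133- arrays (6.43, 6.17 and 6.74). PEG10 measured 6.83, 6.60 and 7.01 in CD133+ and 8.05, 8.22 and 8.79 in CD133- arrays, so that repetition 3 was again highest in each fraction. The nearest genes were picked for likeness over these same 6 arrays, so a shared pattern follows from the choice.

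For MTUS1 the nearest were CAV1, the caveolar scaffold caveolin-1 (RMS 0.090, difference 0.71), KRT23, a keratin (0.098, 0.79), HS3ST1, a heparan sulfate sulfotransferase (0.10, 0.76), KLK6, a secreted serine protease (0.11, 0.67), and SYBU, syntabulin, a linker of cargo to kinesin-1 on microtubules (0.13, 0.74). CAV1 measured 9.56, 9.92 and 9.67 in CD133+ and 8.98, 9.05 and 8.998 in CD133- arrays. As for MTUS1, repetition 2 was highest among the CD133+ arrays, a likeness by which CAV1 was picked.

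**Figure D3:**
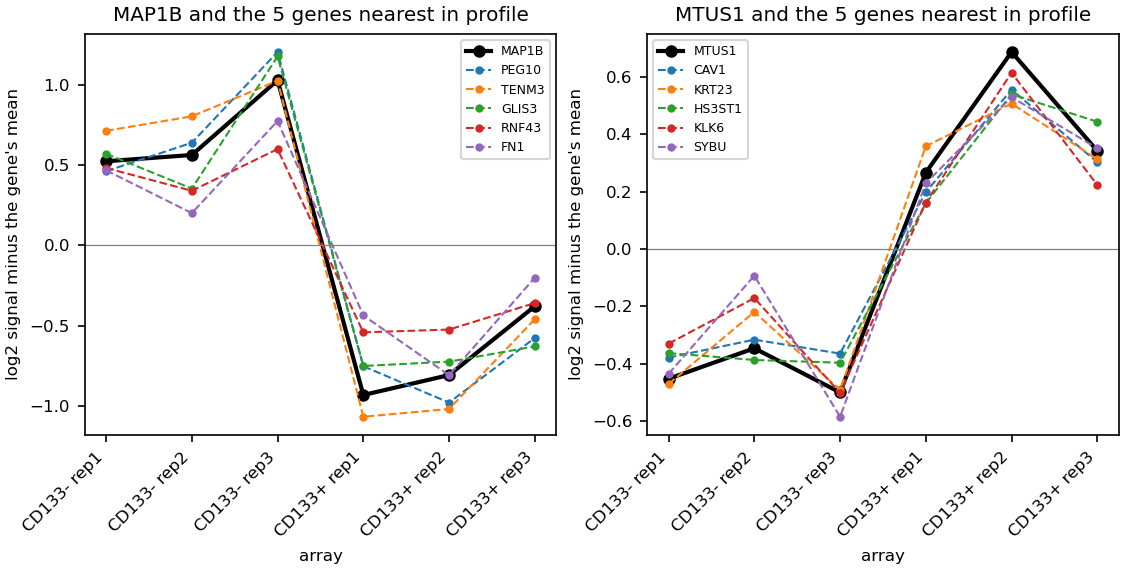
Log2 signal minus the gene's own mean in each of the 6 arrays for MAP1B (left) and MTUS1 (right) in black, with the 5 nearest genes dashed; lines only join the arrays of 1 gene. All 12 profiles split the CD133- from the CD133+ arrays, as the dashed genes were picked for likeness to the black ones. MAP1B, like PEG10, is highest in each fraction in repetition 3.

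Beyond the 10 genes, 165 other genes of the microtubule system were listed in 13 groups, and 160 were measured. With limma and fraction as the only term, 0 of these 160 passed an adjusted p under 0.05, where 0.00354% of all probe sets passed. In that fit 4 of the 160 had an unadjusted p under 0.05, beside 639 of all 18404 genes. With repetition as a block, 0 of 160 passed as well, where 0.298% of all probe sets passed. At an unadjusted p under 0.05 with the block, 5 of the 160 were higher and 17 lower in CD133+ cells (3.12% and 10.6%), beside 5.9% higher and 5.73% lower over all genes. The median difference was -0.032, with 62 genes above and 98 below 0 (61.3% below, beside 52.1% of all genes). The fractions did not overlap for 8 of the 160 (5%, beside 7.95% of all genes), and 61 had 1 sign in all repetitions (38.1%, beside 36.1%).

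Tubulins themselves showed small differences. Among 8 alpha tubulins, 3 were higher and 5 lower (median -0.032), with TUBA1A at -0.41 (unadjusted p = 0.00823 with the block, adjusted p = 0.247) and TUBA4A at 0.20. Among 7 other beta tubulins, 3 were higher and 4 lower (median -0.050), with TUBB2A at -0.19 and TUBB2B at 0.18 in opposite directions. Among 12 genes of gamma tubulin and nucleation, 4 were higher and 8 lower (median -0.038), with TUBGCP3 at 0.22 and TUBGCP5 at 0.19, both subunits of the gamma tubulin ring complex. Of 5 tubulin folding cofactors, 2 were higher, with TBCE at 0.087 and TBCC at -0.067.

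Relatives of the 10 genes had smaller differences than MAP1B or MTUS1. Those genes led the list because they were among the largest differences, so most other genes had to fall short of them. Of 13 other structural MAPs, 10 were higher and 3 lower (median 0.015), with MAP6 at -0.25 and MAP1A, the closest relative of MAP1B, at 0.24 (adjusted p = 0.398 with the block). Of 8 other stathmins and doublecortins, 3 were higher and 5 lower (median -0.021), with DCLK2 at -0.25 and STMN2 at -0.24. Named after their values were seen, MAP1S had 0.069, MTUS2 0.0077, MAPRE1 0.013 and MAPRE3 0.039, beside -1.41 for MAP1B, 0.87 for MTUS1 and 0.21 for MAPRE2. The difference between relatives was not tested.

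The fractions did not overlap for 1 of 13 other plus-end tracking proteins, MACF1. They did not overlap for 3 of 22 transport motor genes, DYNC1H1, KLC1 at -0.24 and DYNC1LI2 at -0.13. The share was 5% over the 160 genes and 7.95% over all genes. KLC1 and DYNC1LI2 were named after their values were seen. Of 13 other plus-end tracking proteins, 6 were higher and 7 lower (median -0.048). MACF1, a spectraplakin that links microtubules to actin, measured 7.95, 7.79 and 7.76 in CD133+ and 8.32, 8.18 and 8.14 in CD133- arrays, a difference of -0.38 (adjusted p = 0.155 with the block). CLIP2, a plus-end protein, had -0.46 (adjusted p = 0.176). Of 22 transport motor genes, 7 were higher and 15 lower (median -0.066). DYNC1H1, the heavy chain of cytoplasmic dynein, measured 9.64, 9.32 and 9.40 in CD133+ and 10.08, 9.69 and 9.86 in CD133- arrays, a difference of -0.42 (adjusted p = 0.133). DYNLT1, a dynein light chain, went the other way at 0.46 (adjusted p = 0.317). With the test limited to probe sets above the median signal, an alternative added after the data were seen, MACF1 and DYNC1H1 passed with the block (adjusted p = 0.0385 and 0.0298). They were 2 of 128 list genes. The count over all probe sets in that fit was not recorded, so no share can be set beside them.

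The medians of the remaining groups ran from -0.087 to 0.055. Of 9 minus-end binding and severing genes, 3 were higher and 6 lower (median -0.087), with the severing genes KATNAL1 at -0.40 and FIGN at -0.22. Of 7 depolymerising kinesins, 4 were higher (median 0.055), with KIF18A at 0.31 and KIF19 at -0.099. Of 21 tubulin modifying enzymes, 5 were higher and 16 lower (median -0.062), with the carboxypeptidase gene VASH2 at -0.37 and the ligase gene TTLL1 at -0.25. Of 11 kinases acting on MAPs, 4 were higher (median -0.028), with CDK5 at 0.18 and MARK1 at -0.15. Of 24 spindle proteins, 8 were higher and 16 lower (median -0.022), with ASPM at -0.35 and TPX2 at 0.23.

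**Figure D4:**
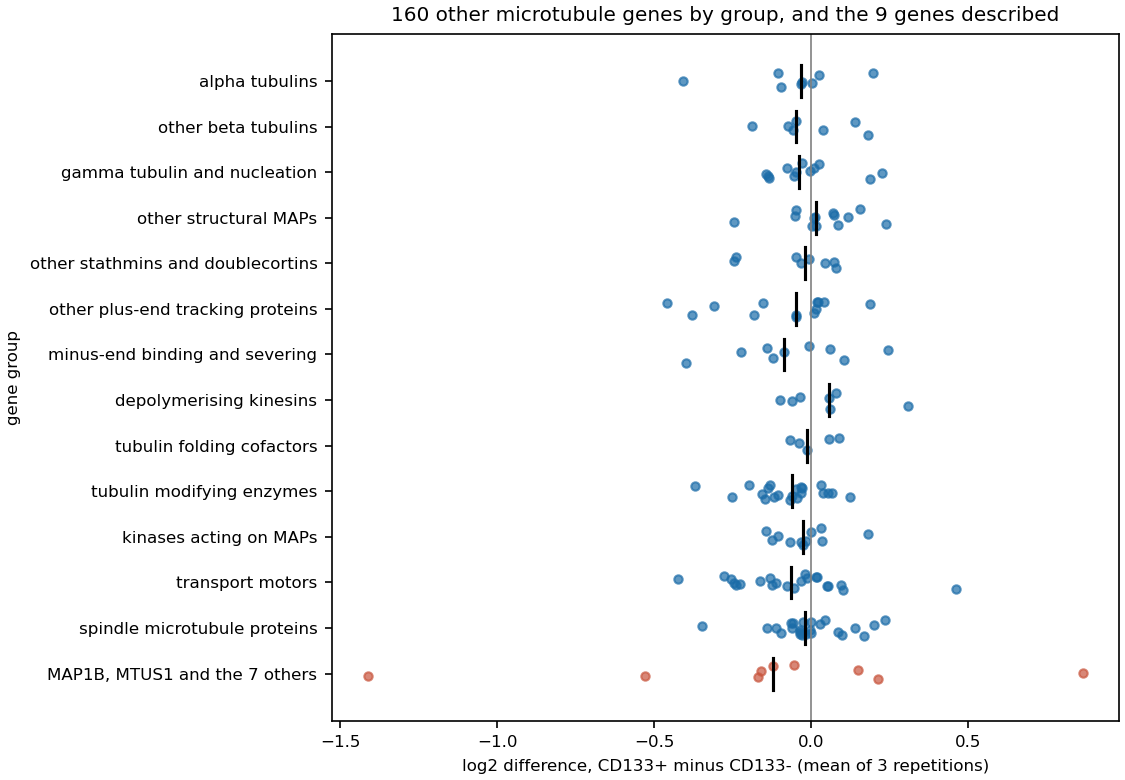
Difference between fractions (log2, mean of 3 repetitions) for 160 other microtubule genes in 13 groups and for the 9 measured genes at the bottom; each point is a gene and each black bar a group median. The other genes lie between -0.46 and 0.46. MAP1B lies at -1.41 and MTUS1 at 0.87, both having led the choice of genes by the size of this difference.

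The level of the 9 genes over both fractions was compared between repetitions, a contrast that did not choose them, by limma's F test in a fit with fraction and repetition. This F test shares its residual with the difference within repetitions, which is small for MAP1B. Of the 9 genes, 2 passed, beside 13% of all probe sets and 2817 of all 18404 genes. MAP1B was highest in repetition 3, with means of 7.17, 7.26 and 7.70 in repetitions 1, 2 and 3 (adjusted p = 0.0333). DCLK1 was highest in repetition 2, with 4.89, 6.39 and 4.66 (adjusted p = 0.0282). The MAP1B call ended without repetition 2 (0.0896) or 3 (0.674), and the DCLK1 call without repetition 2 (0.320) or 3 (0.0586). In these settings 313 and 488 of 28230 probe sets passed. Both calls ended with the leading control rows included (0.0671 and 0.0740), where 69 of 32321 probe sets passed.

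MAP2 had means of 5.49, 4.95 and 5.18 and missed the threshold (adjusted p = 0.0555). MAPRE2 had 7.55, 7.80 and 7.42 (adjusted p = 0.0801) and passed with array medians centred (0.0305) and with dim probe sets left out (0.0233). In those settings 4845 of 28230 and 6791 of 14115 probe sets passed. STMN1, MTUS1, TUBB6, MAP7 and MAP4 had adjusted p values from 0.205 to 0.972, MAP4 having the smallest range of repetition means at 0.027.

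Of the 160 other microtubule genes, 52 differed between repetitions (32.5%), beside 13% of all probe sets and 2817 of all 18404 genes. Among the 52 were 19 of 24 spindle proteins. The 160 genes had a median level of 7.31, beside 6.20 over all genes. With dim probe sets left out, 84 of 128 passed, beside 6791 of 14115 probe sets. Whether signal level bears on the share was not tested. Relative to each gene's own mean, the spindle genes had a median of 0.25, 0.28 and -0.55 in repetitions 1, 2 and 3. KIF20B had means of 7.23, 7.42 and 5.99 (adjusted p = 0.0118), KIF4A 8.45, 8.77 and 7.72 (0.0132) and KIF14 8.14, 7.92 and 6.82 (0.0133), all 3 being motors of the mitotic spindle or midbody. MAP1B, highest in repetition 3, thus ran against the spindle genes, which were lowest there. The count of 52 was 16 without repetition 2, where 313 of 28230 probe sets passed. It was 0 with the leading control rows included, where 69 of 32321 passed. Without repetition 3, 0 of the 160 passed limma's test between repetitions (45 at an unadjusted p under 0.05). Over all probe sets 488 of 28230 passed in that setting (6587 at an unadjusted p under 0.05). What sets the repetitions apart was not tested.

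**Figure D5:**
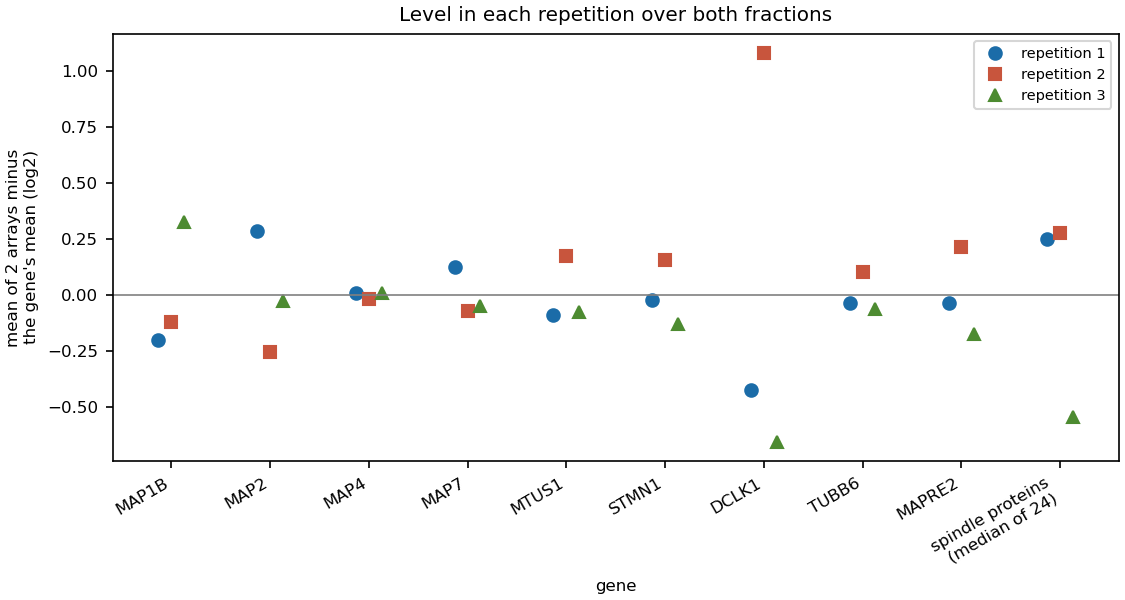
Mean of the 2 arrays of each repetition minus the gene's own mean (log2) for the 9 genes, with the median of 24 spindle proteins at the right. DCLK1 is high in repetition 2, where its mean is 6.39, MAP1B is high in repetition 3, and the spindle proteins are low in repetition 3 at -0.55.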

How the data were processed

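The 6 arrays hold RNA of sorted HCT116 cells, labelled with a whole-transcript kit, per the labels' protocols. The deposited values are log2 signals that the authors made with RMA, per the labels; the software version and genome build are not given in the sources used here, and their range (1.09 to 13.7) fits a log2 scale. Of 32321 rows, a leading block of 4091 without genes was left out as controls, and 28230 probe sets were tested. Genes were named through the annotation of the platform recorded for the value table, a whole-transcript Human Gene ST array whose identifiers the rows carry, although the design text names a U133 array. No filter on dim probe sets was used in the main fits, while the nearest profiles were ranked only among genes above the median signal.

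Differences were fitted with limma 3.58.1 in R 4.3.3 with fraction as the only term, with p-values adjusted by Benjamini-Hochberg over all probe sets at a threshold of 0.05, and again with repetition as a block. After group means were subtracted, arrays with the same number correlated at 0.447, 0.616 and 0.589 across probe sets, so by the data the numbers pair the arrays, although no label ties them to a day or culture. The F test of repetitions came from the fit with both terms. The fits were tested on simulated data.

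The members and gene lists were chosen with earlier results of these data known. All members were named, then in each list the genes that passed or, where none did, the 2 with the smallest p with the block, the 3 list genes with the smallest repetition p, the 5 nearest profiles, and the 2 highest markers per list. The number of arrays limits the precision, and an exact permutation test of 3 against 3 cannot go below p = 0.1.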

Additional observations from a re-analysis of the deposited data

How the results depend on the processing

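Among the other microtubule genes the count of 0 called between fractions held under all 12 alternatives, the replicate block included. With repetition as a term it became 2 of 128 with dim probe sets left out, an alternative added after the data were seen, and stayed 0 in the 7 others. The count over all probe sets with that term and dim probe sets left out was not recorded. Over all probe sets the count of 1 became 84 with the replicate block, 0 after repeated quantile normalization, 0 with array medians centred, 0 with the leading rows included, and 0 to 2 with single arrays left out.

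The repetition test depended more on the processing. Its count over all probe sets, 3680 of 28230, was 313 to 4371 with single repetitions left out and 2655 after repeated quantile normalization. It was 6791 of 14115 with dim probe sets left out and 69 of 32321 with the leading rows included. Among the 9 members the count of 2 was 0 to 2 with repetitions left out and 0 with the leading rows included. Among the other microtubule genes the count of 52 of 160 was 0 to 61 with repetitions left out and 34 after repeated quantile normalization. It was 84 of 128 with dim probe sets left out and 0 with the leading rows included. The cause was not tested.

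The differences of MAP1B, MAP4, MTUS1, STMN1, TUBB6, MAP7 and MAPRE2 kept their sign under every alternative run; those of MAP2 and DCLK1 did not. With single arrays left out, which unbalances the repetitions, MAP1B was -1.58 to -1.25 and MAPRE2 was 0.098 to 0.31.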
